A study of Mus musculus with 4 samples.

Results

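The common gamma chain cytokine receptor genes were followed in RNA-Seq of cultured group 2 innate lymphoid cells (ILC2s) of the mouse large intestine treated with deoxycholic acid (DCA), a bile acid that gut bacteria make from cholic acid. The genes are the rows whose symbol is Il2ra, Il2rb, Il2rg, Il7r, Il4ra, Il9r, Il15ra or Il21r, which gives 8 of the 27179 rows of the deposited count table. They were chosen by name, with earlier results of these data known. Vehicle and DCA were compared in 2 libraries each. Both groups held ILC2s sorted as CD45.2+Lin-CD127+KLRG1+ cells from C57BL/6 (WT) mice, labelled as colon, with no transgene or deletion given for either. Mice were 6 to 8 weeks old by one passage of the methods, while another passage gives a wider age range for the mice of the study. Their sex is unclear, because the methods name both sexes in one sentence and only males for C57BL/6J mice in another. All cells were first grown for 5 days with 10 ng/mL each of IL-7, IL-2, IL-33 and IL-25. The DCA group then received DCA (100 μM in the methods) for 16 hours by the deposited design text and for 24 hours by the methods. The sort used CD127, the protein product of Il7r, and the medium of every library held IL-2 and IL-7, which are ligands of receptors described here. No source used here says whether the 2 libraries of a treatment came from separate animals or cultures, so p-values measure only the spread between these libraries, which may be technical.

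Receptors of this family share the gamma chain encoded by Il2rg, which pairs with a private chain for each cytokine. IL-7R alpha (Il7r) with the gamma chain binds IL-7, IL-4R alpha (Il4ra) binds IL-4, and the chains encoded by Il9r and Il21r bind IL-9 and IL-21. IL-2 and IL-15 share the beta chain encoded by Il2rb, with Il2ra and Il15ra encoding their high-affinity alpha chains. The gamma chain carries JAK3 and the signalling chain that pairs with it carries JAK1. These kinases activate STAT transcription factors, mainly STAT5 for IL-2, IL-7, IL-9 and IL-15, STAT6 for IL-4 and STAT3 for IL-21. In ILC2s, IL-2 and IL-7 support survival and growth, IL-4 and IL-9 act as feedback signals, and IL-7R alpha also forms the TSLP receptor with the chain encoded by Crlf2.

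The 8 genes lie on chromosomes X, 2, 7, 11 and 15, and 4 of them form 2 neighbouring pairs on the same strand. In the GRCm38 assembly (GENCODE annotation), Il2ra (chr2:11642807-11693193) is followed after 12096 bases by Il15ra (chr2:11705290-11734317). Likewise, Il4ra (chr7:125552120-125579474) is followed after 23954 bases by Il21r (chr7:125603429-125633570). RefSeq promoter windows (GRCm38.p6) were present for 7 of the 8 genes, with none for Il2rb. The sequences shown are those of the 2 neighbouring pairs, because the neighbours in each pair differed in level and in their DCA values. Each window was cut to end before the earliest annotated transcript start and is given 5′ to 3′ on the plus strand, on which all 4 genes lie. Capitals mark a match to the NF-kB motif.
Il2ra, chr2:11642542-11642791: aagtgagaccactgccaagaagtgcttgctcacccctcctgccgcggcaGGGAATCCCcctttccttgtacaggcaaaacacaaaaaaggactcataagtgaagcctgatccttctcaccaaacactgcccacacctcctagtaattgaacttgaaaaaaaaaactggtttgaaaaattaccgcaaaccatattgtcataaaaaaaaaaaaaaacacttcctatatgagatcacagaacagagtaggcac
Il15ra, chr2:11705043-11705171: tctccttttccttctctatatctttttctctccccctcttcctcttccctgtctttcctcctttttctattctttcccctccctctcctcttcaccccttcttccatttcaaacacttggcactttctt
Il4ra, chr7:125552021-125552119: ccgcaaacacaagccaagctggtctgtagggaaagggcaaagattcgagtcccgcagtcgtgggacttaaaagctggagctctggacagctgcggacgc
Il21r, chr7:125603179-125603251: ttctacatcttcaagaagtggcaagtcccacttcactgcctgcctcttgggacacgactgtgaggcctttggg
Both strands were searched for the STAT motif TTCNNNGAA and the NF-kB motif GGGANTNCC. They were also searched for the AP-1 motif TGANTCA. The fourth motif was AGATAA, which GATA factors bind. The Il2ra window of 250 bases held 1 match, GGGAATCCC, which starts 201 bases before the window's end. At that length, 3.36% of all 32851 mouse windows held the NF-kB letters, 7.02% the STAT letters, 6.75% the AP-1 letters and 9.99% the GATA letters. The windows of Il15ra (129 bases), Il4ra (99 bases) and Il21r (73 bases) held none of the 4 motifs. At 73 bases, 2.09% of all windows held the STAT letters, 0.858% the NF-kB letters, 1.83% the AP-1 letters and 3.41% the GATA letters. The GATA letters were the most frequent of the 4 motifs, in 5.77% of all windows at 129 bases and 4.53% at 99 bases. Most windows of these lengths thus lack each motif.

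The libraries held 35838342 and 26564059 counts for vehicle replicates 1 and 2, and 32102232 and 244165712 counts for DCA replicates 1 and 2. Levels are given as CPM, the counts of a gene relative to its library's total after TMM scaling for composition. Thus 3 counts, the level used as a floor, correspond to 0.0820 and 0.115 CPM in the vehicle libraries and to 0.0928 and 0.0125 CPM in the DCA libraries, and this floor covers counting error only. All 12 ILC2 markers were detected, with a summed level of 17188 to 18900 CPM with vehicle and 19143 to 21500 CPM with DCA, although Thy1 was near 0 in 3 libraries. Il5 had the highest level of these markers, and without it the sum was 10042 and 9469 CPM with vehicle, against 9190.5 and 9178 CPM with DCA. Both DCA libraries were below both vehicle libraries for 3 of the 12 markers (Klrg1, Il1rl1 and Areg), against 14.7% of all genes tested. Both DCA libraries were above for 2 markers (Il5 and Icos), against 18.6% of all genes tested. Of the markers of other cells, Cd4, Cd8a, Pax5, Csf1r, Cd14, Ncr1 and Fcer1a had no count in any library. Summed over its 7 markers, the T cell list ranged from 21.3 to 31.6 CPM with vehicle and from 14.3 to 51.0 CPM with DCA. The macrophage and monocyte list of 6 markers was at 23.97 to 24.65 CPM with vehicle and at 7.30 to 10.2 CPM with DCA, nearly all of it Cd68. The NK cell and ILC1 list stayed at or under 1.80 CPM in every library and the ILC3 list at or under 1.48 CPM. Epithelial markers summed to 8.28 to 13.5 CPM with vehicle and 7.24 to 9.004 CPM with DCA, and those of mast cells and basophils to 3.50 to 4.62 CPM and 0.349 to 4.70 CPM. The part of these cells in the values below was not tested. In these bulk libraries, fewer cells of a type and less RNA per cell cannot be told apart.

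All 8 genes were detected in at least 2 libraries, but their levels spanned a wide range (levels by library are plotted). To compare genes, CPM was divided by the length of each gene's exons in kilobases. Il2rg was the highest, at 518 and 536 CPM per kb with vehicle and 686 and 602 CPM per kb with DCA. Its mean of 586 ± 76.4 CPM per kb (SD over the 4 libraries) was above that of 99.2% of the 10793 tested genes with a known length. Il2ra came next at 241 ± 46.5 CPM per kb, followed by Il7r at 94.7 ± 22.5 CPM per kb. Together these genes for the gamma chain, the IL-2 alpha chain and the IL-7 chain made up most of the family's summed level: Il2rg held 57.1% to 59.7% of it, Il2ra 21.4% to 26.4% and Il7r 8.37% to 10.4% in the 4 libraries. Il2rb averaged 40.6 ± 14.0 CPM per kb and Il4ra 29.4 ± 8.64 CPM per kb. Il9r was lower at 11.1 ± 2.08 CPM per kb, and Il15ra lower still at 3.24 ± 1.89 CPM per kb. Il21r averaged 2.10 CPM per kb, all of it from the DCA libraries, and 0.276 CPM per kb without DCA replicate 1.

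In this order, Il2rg, Il2ra, Il7r, Il4ra and Il9r were each above the next gene in all 4 libraries. Il2rb and Il4ra were not separated, because Il4ra was above Il2rb in vehicle replicate 1, at 42.0 against 33.9 CPM per kb. The same held for Il15ra and Il21r, with Il21r above Il15ra in DCA replicate 1 at 7.59 against 1.06 CPM per kb. The order was the same with the longest transcript as the length. For Il2rg, 728 exon bases are shared with Gm20489 on the same strand, and for Il4ra, 571 exon bases are shared with the antisense gene Gm44876. Gm37881 lies inside Il2ra on the same strand without sharing exon bases. How reads in shared bases were assigned is not given in the sources used here, so these levels are uncertain to that extent.

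**Figure D1:**
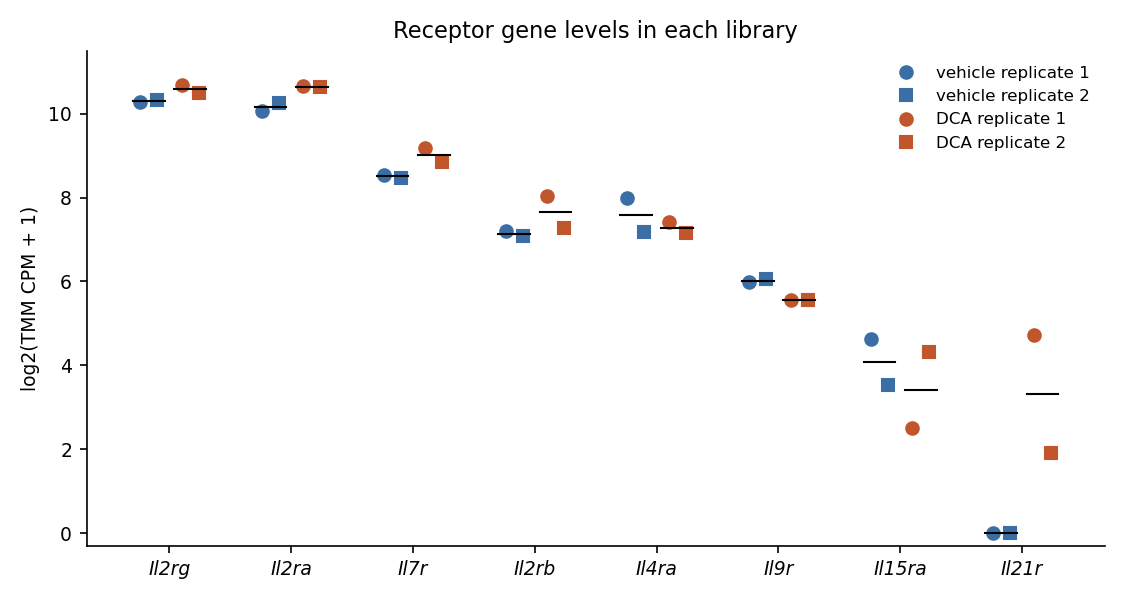
Level of each receptor gene in each library, as log2(TMM CPM + 1) on the vertical axis and genes on the horizontal axis. Blue marks stand for vehicle, red marks for DCA, circles for replicate 1, squares for replicate 2 and black lines for the mean of the 2 log2 values. Both DCA marks lie above both vehicle marks for Il2rg, Il2ra, Il7r, Il2rb and Il21r, and below them for Il9r.

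With DCA, no receptor gene had an adjusted p under 0.05 by the quasi-likelihood test of edgeR, and neither did any of the 11184 genes tested (0% called). The 2 DCA libraries exceeded the 2 vehicle libraries for 5 of the 8 receptor genes (Il2rg, Il2ra, Il2rb, Il7r and Il21r), an arrangement found in 18.6% of all genes tested. Both were below for 1 receptor gene (Il9r), as for 14.7% of all genes tested, and the libraries overlapped for Il4ra and Il15ra. The median log2 fold change over the 8 genes was 0.38, against 0.0080 over all genes tested. Il21r enters these counts only through its DCA libraries, since it was at 0 with vehicle. Unadjusted p-values under 0.05 were found for 2 receptor genes higher with DCA (Il2ra and Il21r), against 2.54% of all genes tested, and for 0 lower with DCA, against 1.73%. With 2 libraries against 2, the smallest two-sided p that an exact permutation test allows is 0.333, which every gene without overlap reached.

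Il2rg, the shared gamma chain, was counted at 1236 and 1279 CPM with vehicle and at 1638 and 1438 CPM with DCA. Each DCA library exceeded each vehicle library. The DCA mean of 1538 ± 142 CPM was 22.3% above the vehicle mean of 1257 ± 30.3 CPM (SD, n = 2 each). The log2 fold change of 0.29 (SE 0.097) gave an adjusted p of 0.999 in edgeR's test (unadjusted 0.174), so the difference did not pass.

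Il2ra encodes CD25, the alpha chain that gives the IL-2 receptor high affinity. It stood at 1074 and 1230 CPM with vehicle and at 1613 and 1584 CPM with DCA. The DCA libraries lay close to each other and above both vehicle libraries. The mean was 1152 ± 110 CPM with vehicle and 1598 ± 20.8 CPM with DCA (SD, n = 2 each), which is 38.8% higher. On the log2 scale the change was 0.47 (SE 0.099) and gave an adjusted p of 0.999 in edgeR's test (unadjusted 0.0459). Over the 9 alternatives with all libraries the log2 fold change was 0.44 to 0.48, and the unadjusted p ran from 0.0107 to 0.108.

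Il2rb, the beta chain of the IL-2 and IL-15 receptors, was at 145 and 135 CPM with vehicle and at 263 and 153 CPM with DCA. DCA replicate 1 stood well above the rest, and DCA replicate 2 was near the vehicle libraries. The log2 fold change of 0.57 (SE 0.39) gave an adjusted p of 0.999 in edgeR's test (unadjusted 0.115). Without DCA replicate 1 it was 0.12, and without DCA replicate 2 it was 0.91.

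Il7r, which encodes the sort marker CD127, gave 373 and 350.2 CPM with vehicle, against 582 and 461 CPM with DCA. Its treatments did not overlap, with DCA the higher. The DCA mean was 522 ± 85.7 CPM, 44.2% above the vehicle mean of 362 ± 16.5 CPM (SD, n = 2 each). The log2 fold change was 0.53 (SE 0.17) and gave an adjusted p of 0.999 in edgeR's test (unadjusted 0.0531). Cells of both groups had been sorted on CD127 protein before culture, so the presence of Il7r was a condition of the sort. Klrg1, the other positive sort marker, was at 688 and 678 CPM with vehicle and at 463 and 356 CPM with DCA.

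Il4ra encodes the chain that binds IL-4 and is also part of an IL-13 receptor. It was at 252 and 144 CPM with vehicle and at 169 and 141 CPM with DCA. Vehicle replicate 1 was the highest, and the other 3 libraries lay between 141 and 169 CPM. This is a log2 fold change of -0.35 (SE 0.42) and gave an adjusted p of 0.999 in edgeR's test (unadjusted 0.315). Without vehicle replicate 1 it was 0.082, so its direction rests on that library.

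Il9r, the private chain of the IL-9 receptor, was the one receptor gene below vehicle in both DCA libraries. It stood at 62.1 and 65.4 CPM with vehicle and at 45.9 and 46.4 CPM with DCA. The values within each treatment lay close to each other, with means of 63.8 ± 2.33 CPM and 46.2 ± 0.286 CPM (SD, n = 2 each). Its log2 fold change was -0.47 (SE 0.037) and gave an adjusted p of 0.999 in edgeR's test (unadjusted 0.170).

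Il15ra, which presents IL-15 to neighbouring cells, varied within both treatments. It was at 23.5 and 10.5 CPM with vehicle and at 4.70 and 18.9 CPM with DCA. The DCA libraries were 4.03 times apart and enclosed the lower vehicle library. The log2 fold change of -0.53 had an SE of 1.05 and gave an adjusted p of 0.999 in edgeR's test (unadjusted 0.561). Without vehicle replicate 1 it was 0.14 and without DCA replicate 1 it was 0.15, so its direction rests on these libraries.

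**Figure D2:**
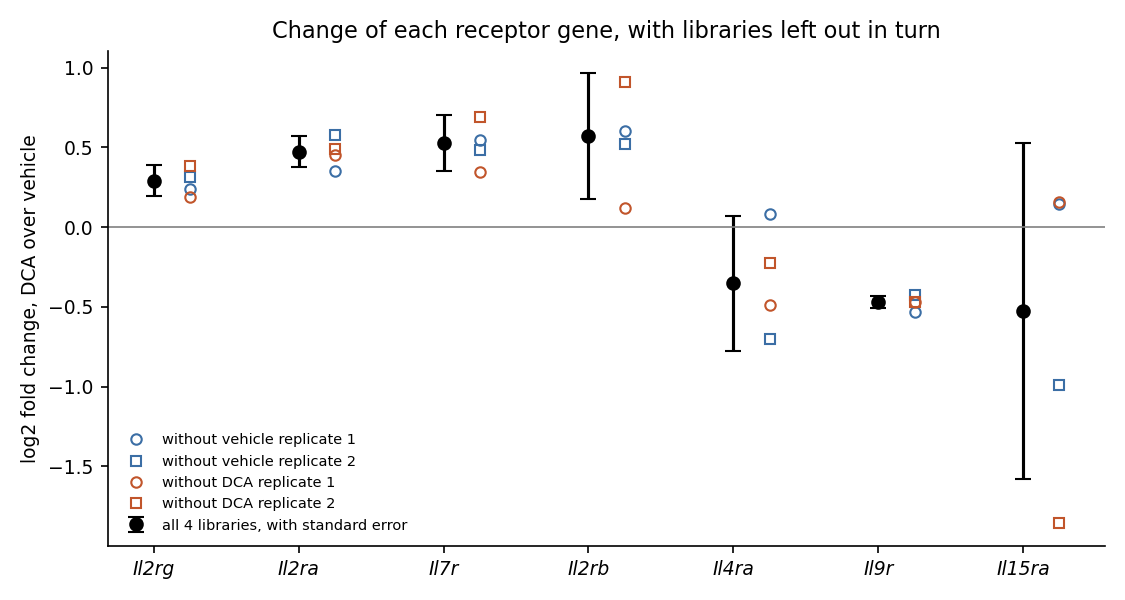
Log2 fold change of DCA over vehicle (vertical axis) for 7 receptor genes (horizontal axis), leaving out Il21r, which had no count with vehicle. Black points give the value fitted by edgeR from all 4 libraries. Their bars give the standard error of the difference in mean log2(CPM + 1), which is a separate estimate. Open marks give the fitted value with 1 library left out, blue for a vehicle and red for a DCA library. Open marks for Il4ra and Il15ra fall on both sides of 0, while those for Il2rg, Il2ra, Il7r, Il2rb and Il9r stay on one side.

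Il21r, the private chain of the IL-21 receptor, had 0 counts in both vehicle libraries, 816 counts in DCA replicate 1 and 663 counts in DCA replicate 2. This corresponds to 0, 0, 25.2 and 2.75 CPM. Both DCA libraries were above the vehicle libraries, but they differed from each other by 9.16 times. With the vehicle libraries set to the floor of 3 counts each, the DCA mean was 142-fold higher. This bound was 257 from DCA replicate 1 alone and 28.0 from DCA replicate 2 alone. It takes each count as 1 independent fragment, which may not hold for these counts. In edgeR's test the unadjusted p was 0.00318 and the adjusted p 0.999, so the difference did not pass. It passed with no filter on low counts (adjusted p = 0.000257 in edgeR, where 0.136% of 17706 genes were called higher with DCA) and in DESeq2 (adjusted p = 1.84e-05, where 0.775% of 10967 genes were called higher). Without DCA replicate 1, Il21r fell under the filter. In the other alternatives with all libraries the adjusted p was 0.944 to 1 with edgeR or limma. Of the tested genes, 187 (1.67%) had at most 3 counts in both vehicle libraries, and 113 of these reached 1 CPM in both DCA libraries. Like Il21r, these genes passed the filter through their DCA libraries. In the other direction, 50 tested genes (0.447%) had at most 3 counts in both DCA libraries. Of these 50, 11 reached 1 CPM in both vehicle libraries. The directions are not alike in depth, since 3 counts are 0.0125 CPM in DCA replicate 2 and 0.115 CPM in vehicle replicate 2. Among 3174 genes within 2 times of the DCA mean of Il21r, 17 (0.536%) had at most 3 counts in both vehicle libraries. Of the same genes, 106 (3.34%) had 0 counts in at least 1 vehicle library. The DCA mean of Il21r rests mostly on DCA replicate 1, so these genes are not matched to its level in DCA replicate 2.

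The IL-21 receptor is also made by T and B cells, so their markers are given beside it. Single markers were picked after their values were seen. Lef1, a T cell transcription factor, was at 6.83 and 5.99 CPM with vehicle and at 29.3 and 3.07 CPM with DCA, and Thy1, which T cells also make but which is counted here among the ILC2 markers, was at 0.0546, 0, 4.24 and 0.0249 CPM in the same order. Like Il21r, both were highest in DCA replicate 1, but Lef1, unlike Il21r, was lower in DCA replicate 2 than in both vehicle libraries. Cd3g was at 11.9 and 25.5 CPM with vehicle and at 21.3 and 10.5 CPM with DCA, with no peak in DCA replicate 1. Cd3e was at 1.91 and 0 CPM with vehicle and at 0 and 0.345 CPM with DCA, with no count in DCA replicate 1. Cd3d was highest in vehicle replicate 1, at 0.710 CPM. Of the 7 T cell markers, Cd4 and Cd8a were at 0 in all libraries and 4 stayed under 1 CPM in all libraries. The B cell list of 5 markers summed to 47.2 to 55.1 CPM with vehicle and to 37.7 to 44.5 CPM with DCA, nearly all of it Cd79b. The part of other cells in the Il21r counts was not tested.

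The receptor chains were also set against the shared gamma chain, since each private chain pairs with it and a ratio within a library needs no scaling between libraries. Levels per kb were divided by that of Il2rg (ratios by library are plotted). Il2ra stood at 36.3% and 40.2% of Il2rg with vehicle and at 41.2% and 46.0% with DCA. Il7r stood at 15.5% and 14.0% of Il2rg with vehicle and at 18.2% and 16.4% with DCA. Both ratios were higher in both DCA libraries, by 0.19 (SE 0.11) for Il2ra and by 0.23 (SE 0.10) for Il7r on the log2 scale. Il9r fell on the other side: its level was 2.43% and 2.47% of that of Il2rg with vehicle and 1.35% and 1.56% with DCA, a log2 difference of -0.75 (SE 0.10). Il4ra was at 8.11% and 4.47% of Il2rg with vehicle and at 4.10% and 3.91% with DCA, a log2 difference of -0.59 (SE 0.43), with both DCA libraries lower. That difference was -0.16 without vehicle replicate 1 and -1.02 without vehicle replicate 2. Il2rb, at 6.55%, 5.86%, 8.94% and 5.92% of Il2rg in vehicle replicates 1 and 2 and DCA replicates 1 and 2, and Il15ra, at 1.02%, 0.442%, 0.154% and 0.707%, overlapped between treatments. Of the 6 ratios tested, those of Il2ra, Il7r, Il4ra and Il9r had the smallest p that the exact permutation test allows, 0.333 (two-sided, 0.5 after Benjamini-Hochberg adjustment), so none of them passed. Over the other tested genes, the ratio to Il2rg was higher in both DCA libraries for 9.69% and lower in both for 28.7%. Its median log2 difference was -0.25 over the 10071 genes with counts in all libraries, which is the value to set beside those of the receptor chains, since Il2rg itself was higher with DCA. Il21r was at 1.11% and 0.138% of Il2rg with DCA, and with no vehicle count its ratio was not tested.

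**Figure D3:**
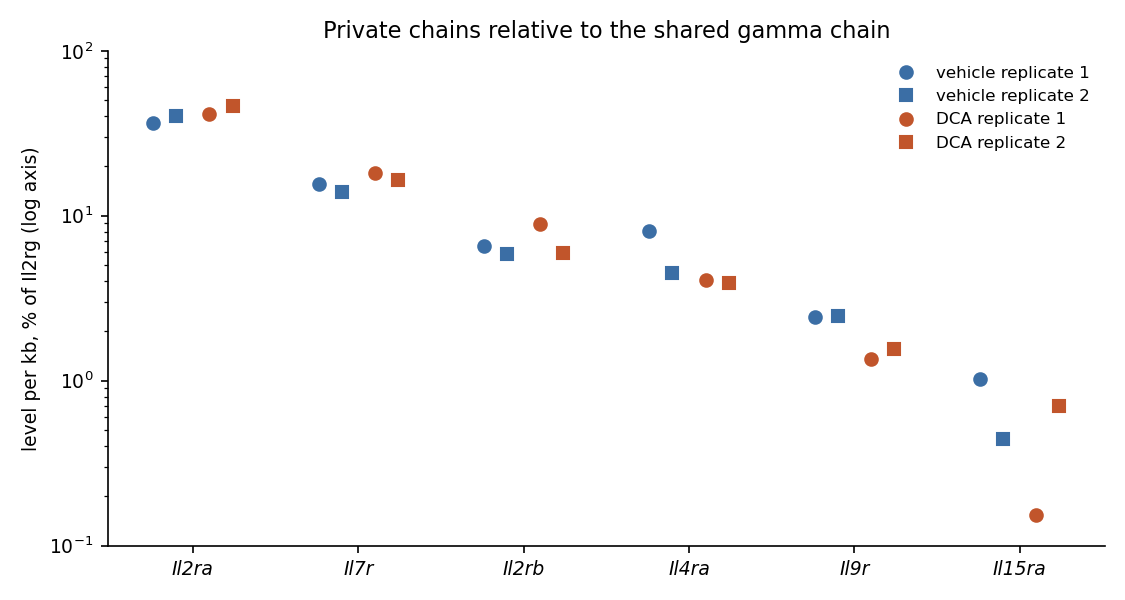
Level per kb of 6 receptor genes as a percent of that of Il2rg in the same library (vertical axis, log scale). Blue marks stand for vehicle, red marks for DCA, circles for replicate 1 and squares for replicate 2. Both DCA marks lie above the vehicle marks for Il2ra and Il7r and below them for Il4ra and Il9r.

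Neighbouring genes on the same strand had unlike levels. The mean level of Il2ra was 202 CPM per kb with vehicle and 280 CPM per kb with DCA, whereas that of Il15ra, its neighbour, was 3.83 and 2.66 CPM per kb. Il4ra averaged 33.0 CPM per kb with vehicle and 25.8 CPM per kb with DCA, and its neighbour Il21r averaged 0 and 4.21 CPM per kb. In DCA replicate 1, where Il21r was highest, Il4ra was at 28.1 CPM per kb, between its vehicle levels of 23.96 and 42.0 CPM per kb.

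**Figure D4:**
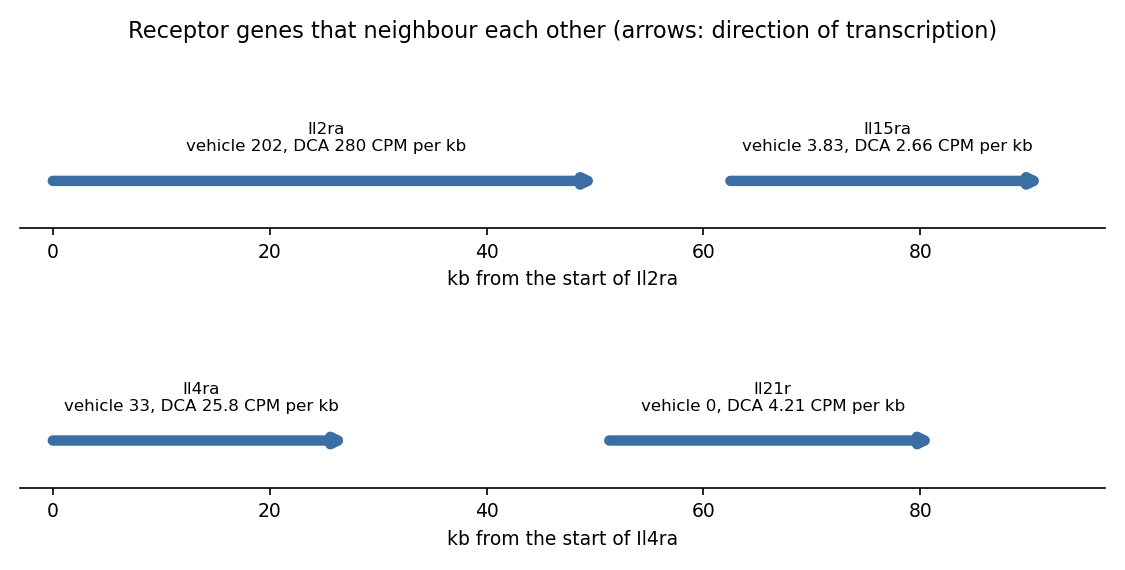
Maps to scale of the neighbouring pairs Il2ra and Il15ra, and Il4ra and Il21r, with distance in kilobases from the start of the first gene on the horizontal axis, arrows for the direction of transcription, and the mean level per kb with vehicle and DCA above each gene. The pairs are separated by 12096 and 23954 bases.

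Of the 8 ligands of these receptors, 3 (Il4, Il9 and Il13) were tested, all with a positive log2 fold change and with a median of 0.25. Il9 was the one with an unadjusted p under 0.05 in edgeR's test, where 2.54% of all genes tested were so called higher with DCA. Il9, a ligand that ILC2s make themselves, was at 169 and 345 CPM with vehicle and at 546 and 898 CPM with DCA. It was higher in each DCA library than in each vehicle library, as were 18.6% of all genes tested. Its receptor gene Il9r was lower in both DCA libraries, as were 14.7% of all genes tested. The log2 fold change of Il9 was 1.49 (SE 0.63) and gave an adjusted p of 0.999 in edgeR's test (unadjusted 0.010), and it did not pass. Il4 was at 142 and 189 CPM with vehicle and at 156 and 236 CPM with DCA, with overlap. Il15, Il21 and Tslp had no count in any library, Il2 had 34 counts in DCA replicate 2 alone, and Il7 had 10 counts in vehicle replicate 2 and 218 in DCA replicate 2. Both lay under the filter and were not tested.

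The partner chains from outside the family were 3 genes, of which 1 was tested and 1 had no count in any library. Crlf2, which joins IL-7R alpha in the TSLP receptor, was at 17.1 and 14.9 CPM with vehicle and at 14.4 and 20.5 CPM with DCA, with overlap (log2 fold change 0.13, unadjusted p = 0.826 in edgeR's test). Il13ra1, which joins IL-4R alpha in the IL-13 receptor, had 1 count, in DCA replicate 2. It lay under the filter and was not tested.

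Of the 16 kinase, STAT and adaptor genes tested, 14 had a negative and 2 a positive log2 fold change, with a median of -0.30 against 0.0080 over all genes tested, and edgeR's test gave none of them an unadjusted p under 0.05. Both DCA libraries were below both vehicle libraries for 5 of them, against 14.7% of all genes tested. Jak1, the kinase of the signalling chains that pair with the gamma chain, was 1 of these. It was at 344 and 286 CPM with vehicle and at 248 and 264 CPM with DCA (log2 fold change -0.30, unadjusted p = 0.216 in edgeR's test). Jak3, the kinase of the gamma chain, was at 201 and 160 CPM with vehicle and at 202 and 125 CPM with DCA, with overlap. Stat5a was at 28.6 and 33.1 CPM with vehicle and at 29.4 and 20.8 CPM with DCA, and Stat5b at 47.6 and 64.7 CPM with vehicle and at 50.8 and 47.7 CPM with DCA. Stat6, which acts below the IL-4 receptor, was at 154 and 51.8 CPM with vehicle and at 70.5 and 52.2 CPM with DCA. As for Il4ra, vehicle replicate 1 was the highest library for Stat6.

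The 15 genes linked to STAT5 and its feedback gave 10 positive and 5 negative log2 fold changes, with a median of 0.079. In edgeR's test 0 reached an unadjusted p under 0.05, both DCA libraries were above vehicle for 2 (18.6% of all genes tested) and below for 1 (14.7%), and 12 overlapped. Cish, a feedback inhibitor that STAT5 induces, was at 513 and 415 CPM with vehicle and at 575 and 357 CPM with DCA, on both sides of the vehicle libraries. Socs2, another such inhibitor, was at 91.7 and 96.0 CPM with vehicle and at 108 and 77.6 CPM with DCA. Bcl2, a survival gene, was at 9.84 and 11.0 CPM with vehicle and at 22.6 and 3.99 CPM with DCA. For all 3, DCA replicate 1 was the highest library and DCA replicate 2 the lowest. Of 20 other type I cytokine receptor genes, 8 were tested and 4 had no count in any library. They split into 4 positive and 4 negative log2 fold changes with a median of -0.040, and 0 had an unadjusted p under 0.05.

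**Figure D5:**
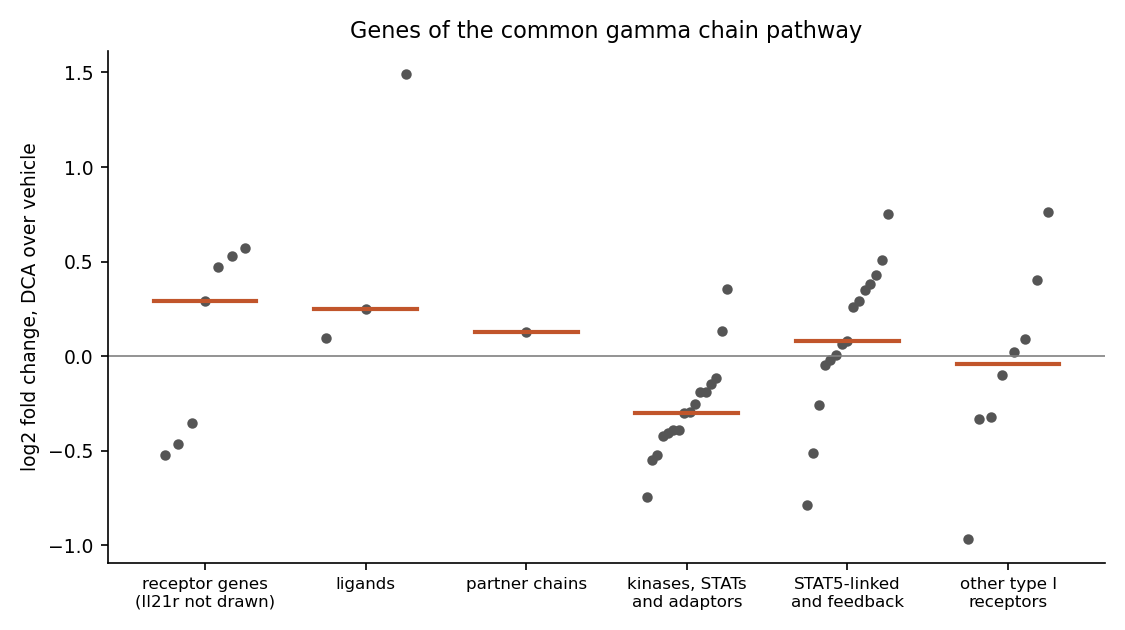
Log2 fold change of DCA over vehicle (vertical axis) for each tested gene of the receptor family and of 5 related lists, with a red line at the median of the genes drawn. Il21r is not drawn, which puts the line of the receptor genes at 0.29, and 14 of 16 points of the kinases, STATs and adaptors lie below 0.

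For the receptor genes, the 3 tested genes with the most similar pattern were found by the root mean square (RMS) difference of log2(CPM + 1), centred on each gene's mean, over the 4 libraries. For Il2ra these were Mtres1 (RMS 0.013), Rnaseh2c and Tmem11, and 127 genes lay within 0.1 of it. Il7r was closest to Rsbn1 (RMS 0.0052), Cux1 and Pqbp1, and Il2rg to Gpatch11 (RMS 0.016), Csnk1a1 and Map4k1. Bcl10 came first for Il2rb, Blmh for Il9r and Agfg2 for Il15ra. For Il21r no gene lay within 0.1. Its closest genes were Clgn (RMS 0.23), Capn10 and Sorcs1, which were also at or near 0 with vehicle: Clgn was at 0, 0, 16.9 and 2.39 CPM and Sorcs1 at 0, 0, 15.1 and 2.40 CPM in vehicle replicates 1 and 2 and DCA replicates 1 and 2. With 4 libraries, many genes share a pattern, and these likenesses are descriptions.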

How the data were processed

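RNA-Seq of 2 vehicle and 2 DCA libraries was used, grouped by their labels. The authors made cDNA with a SMART-Seq kit, trimmed reads (cutadapt 1.9) and mapped them to the mm10 genome (HISAT2 2.2.1). Although named for FPKM, the deposited table holds read counts as whole numbers. The counting tool, annotation and strand setting are not given in the sources used here, so overlapping genes are uncertain. In every library more genes had 2 counts than 1 count (484 against 253 in vehicle replicate 1), so a count may not be 1 independent fragment. In 1275 rows no symbol is given. These hold 0.137% to 0.173% of the counts of a library and were kept under their identifiers.

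Counts were tested with edgeR 4.0.16 in R 4.3.3 (TMM, quasi-likelihood, two-sided, Benjamini-Hochberg) on the 11184 genes whose mean reached 1 CPM. Log2 fold changes of the reported test are those fitted by edgeR. The standard errors beside them are those of the difference in mean log2(CPM + 1), a separate estimate. For the ratios to Il2rg, standard errors are those of the difference in mean log2 ratio. Where neither library of a treatment exceeded 3 counts, 3 counts per library were used. Exact permutation tests compared single values between libraries. The model was checked on simulated counts. Exon lengths are from GENCODE on GRCm38 and promoter windows from RefSeq on GRCm38.p6. The motif letters were chosen after the sequences had been seen.

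The receptor genes, the 5 related lists and the marker lists were chosen with earlier results of these data known. All 8 receptor genes are named. Of the lists, genes are named if their unadjusted p was under 0.05 or their absolute log2 fold change over 1 without overlap, together with Crlf2, Il13ra1, Jak1, Jak3, Stat5a, Stat5b, Stat6, Cish, Socs2 and Bcl2. The other ligands and the single marker genes were named after their values were seen. Similar genes are the 3 with the smallest RMS difference, and those of Il4ra are not reported here.

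Alternatives were scaling by total counts or by median of ratios, no filter, a mean of at least 5 CPM, edgeR's filterByExpr, DESeq2 1.42.0 (the tool the study names), limma 3.58.1 on log2(CPM + 1), the replicate number as a block, DCA replicate 2 thinned at random to 32090062 counts, other gene lengths, and leaving out each library. Calls over all genes without 1 library, the ratios to Il2rg over all genes and the ILC2 marker sum without Il5 were added after seeing the data. The protein and animal experiments of the study were not analysed here.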

Additional observations from a re-analysis of the deposited data

How the results depend on the processing

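The log2 fold changes of Il2ra, Il2rb, Il2rg, Il7r and Il9r kept their direction under 9 alternatives with all libraries and without each library, at 0.35 to 0.58, 0.12 to 0.91, 0.19 to 0.38, 0.34 to 0.69 and -0.53 to -0.43 without 1 library, and none passed an adjusted p of 0.05. Il4ra was at -0.70 to 0.082 without 1 library, turning to 0.082 without vehicle replicate 1. Il15ra was at -1.86 to 0.15, turning to 0.14 without vehicle replicate 1 and to 0.15 without DCA replicate 1. The Il21r bound was 7.16 on the log2 scale with no filter and 7.14 with DESeq2, where it passed, and 6.91 to 8.01 without 1 library, where it did not. Without DCA replicate 1, Il21r fell under the filter and was not tested, so the range leaves that case out. From DCA replicate 2 alone the bound was 28.0-fold, given here as a fold and not on the log2 scale. The number of genes past an adjusted p of 0.05 was 0 in the reported test, 36 with no filter (24 higher, 12 lower), 128 with DESeq2 (85 higher, 43 lower) and 0 to 20 without 1 library, the 20 being without vehicle replicate 1. For an unadjusted p under 0.05 it was 478 in the reported test, 847 with no filter, 784 with DESeq2 and 106 to 1497 without 1 library. It was 106 or 259 when DCA replicate 1 or 2 was left out, and 1497 or 1231 when vehicle replicate 1 or 2 was. A lone library was assumed to vary like the other treatment. Relative to Il2rg, Il2rb went from 0.23 to -0.066 and Il15ra from -1.03 to 0.073 without DCA replicate 1, with ranges of -0.066 to 0.53 and -2.13 to 0.073 without 1 library. With the longest transcript as the length, mean levels per kb moved to 837 for Il2rg, 312 for Il2ra, 125 for Il7r and 6.23 for Il15ra. The cause of these changes was not tested. Across the tested genes, the deviations of libraries with the same replicate number had a correlation of 0.0197. With 2 libraries per treatment, this cannot show whether such libraries shared an animal or culture. With the replicate number as a block, 0 genes passed an adjusted p of 0.05 and 450 an unadjusted p under 0.05. Low genes are limited by depth, with a floor of 3 counts at 0.115 CPM in the shallowest library.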
